A study of Homo sapiens with 6 samples.

Results

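A set of 35 genes of the amino acid response that the transcription factor ATF4 directs were examined in the human colorectal cancer line KM12. They were chosen as a named list, matched to the deposited table by Ensembl identifier and symbol. All 35 had a row among the 27134 genes of the table, and all 35 passed the filter on low values. The groups were 3 libraries of KM12 cells overexpressing CDO1 and 3 libraries of mock KM12 cells, at passages 10 to 15 in both. Cysteine dioxygenase, the product of CDO1, turns free cysteine into cysteine sulfinic acid and so consumes an amino acid used to build protein. The sources used here give neither the vector and promoter that drove CDO1 nor whether each group was 1 clone or several cultures, so the spread behind each p-value is that of the libraries and may be technical only.

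ATF4 is the effector of the integrated stress response. Kinases that sense amino acid shortage, unfolded protein in the endoplasmic reticulum, haem shortage or viral RNA phosphorylate the initiation factor eIF2α, which lowers general translation and raises translation of ATF4 mRNA. ATF4 protein then pairs with C/EBP and other leucine zipper factors and switches on genes that make, import and charge amino acids. ATF4 is controlled to a large extent in its translation, which mRNA counts do not measure.

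Reads assigned to genes totalled 17516640 to 22198173 per library. The CDO1 mRNA followed the labels: 2484, 2336 and 2333 normalised counts (reads divided by the authors' size factor) in the libraries overexpressing it, listed here and below in replicate order, against 68.1, 0 and 0 in the mock libraries. The value of mock replicate 1 came from 76 reads, and its part in the results below was not tested beyond leaving that library out. Of 12 colorectal epithelial markers, 9 had a mean of at least 100 normalised counts. The summed level of all 12, mostly KRT8, was 194295 to 208111 with CDO1 and 144635 to 153162 in mock. Only 2 of 5 haematopoietic and 2 of 6 fibroblast markers had a row, against 3 of 3 endothelial ones. Those with a row were low. The haematopoietic markers summed to at most 14.3, the endothelial markers to at most 82.4 and the fibroblast markers, mostly COL1A1, to at most 293. The part of these differences in the results below was not tested. Libraries also differed in how their levels followed the GC content of genes: the Spearman's rho of a library's deviation with GC over 10926 genes ran from -0.34 in CDO1 replicate 1 to 0.52 in mock replicate 2. Values with this trend removed are given beside members whose call they change. For the risers and some of the others they follow the account of the roles.

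The element through which ATF4 acts on amino acid genes, the C/EBP-ATF response element (CARE), was searched as the letters TGATGNAA on both strands of promoters in the RefSeq table for GRCh38.p14, from 250 bases before to 50 after each start. A promoter was given for 29 of the 35 genes. None was given for NUPR1, PSPH, SHMT2, ALDH1L2, PYCR1 and INHBE. The letters were found in 12 of these 29 genes (41.4%), and in 1217 of all 27305 genes of the table (4.46%), or 3.62% of 35116 windows. Several of these genes are known for such elements, so the share describes the list. The 5 that also rose in the CDO1 libraries are shown first. Capitals mark the match, which reads TTNCATCA where it lies on the other strand, and positions count from the annotated start, with the base before it as -1. The match began at -68 in ASNS (chr7:97872447-97872498, minus strand), at -209 in CHAC1 (chr15:40953240-40953291, plus strand), at -2 in CARS1 (chr11:3057396-3057447, minus strand), at -33 in GARS1 (chr7:30594823-30594874, plus strand) and at -7 in SLC1A4 (chr2:64989370-64989421, plus strand).
ASNS: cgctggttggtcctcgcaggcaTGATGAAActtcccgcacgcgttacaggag
CHAC1: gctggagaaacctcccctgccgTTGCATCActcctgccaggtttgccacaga
CARS1: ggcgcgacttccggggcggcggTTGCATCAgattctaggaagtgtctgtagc
GARS1: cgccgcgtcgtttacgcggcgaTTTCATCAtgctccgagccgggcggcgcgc
SLC1A4: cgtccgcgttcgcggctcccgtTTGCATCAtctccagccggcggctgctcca
The same letters stand in genes that did not pass the test, of which 2 are shown for comparison. They began at -187 in AARS1 (chr16:70289664-70289715, minus strand) and at -42 in CEBPG (chr19:33374049-33374100, plus strand).
AARS1: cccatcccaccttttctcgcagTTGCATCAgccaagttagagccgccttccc
CEBPG: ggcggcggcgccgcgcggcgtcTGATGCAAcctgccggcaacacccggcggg
Of the genes with a promoter, 5 of 10 that rose, 7 of 18 that did not pass the test and 0 of 1 that fell (STC2) held the letters. The other matches were in ATF3, JDP2, MTHFD1L, SLC7A1 and SLC1A5. The full cAMP response element, TGACGTCA, was in 0 of the 29 and in 2.25% of all genes. A match is a description of letters in this window and not a measured binding site.

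In the cells overexpressing CDO1, 11 of the 35 genes rose, 2 fell and 22 did not pass the test (limma on log2 of the normalised count plus 1, Benjamini-Hochberg adjusted p under 0.05 over 21775 genes). Over all genes tested, 11.3% rose and 12.7% fell. The rises were small, between 1.11-fold in WARS1 and 1.35-fold in CHAC1, whereas STC2 fell 2.57-fold. The risers were TRIB3, ASNS, PSAT1, PSPH, ALDH18A1, PCK2, CARS1, GARS1, WARS1, SLC1A4 and CHAC1, of which 5 are on the list of amino acid and one-carbon enzymes and 3 are tRNA synthetases. The mRNA of ATF4 itself, of CEBPB, CEBPG, ATF3, ATF5 and DDIT3 did not pass the test.

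Abundant genes were also compared among themselves. Of the 22 members with a mean of at least 1000 normalised counts, 10 rose and 1 fell (PYCR1). Among all 4762 genes at that level, 23.6% rose and 12.7% fell. The median log2 difference was 0.08 over the 35 members and 0.11 over the 22 abundant ones, against -0.0035 over all genes tested and 0.04 over all abundant genes. Differences were positive in 25 members and negative in 10, and among the abundant members in 18 and 4. The share of positive differences over all genes or all abundant genes was not counted, so these counts stand without a background. The CDO1 libraries all lay above the mock libraries in 14 members and all below in 3, where 18.3% and 18.9% of all genes tested did so. Of these, 12 and 1 were abundant members, and the shares without overlap over all abundant genes were not set beside them.

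**Figure D1:**
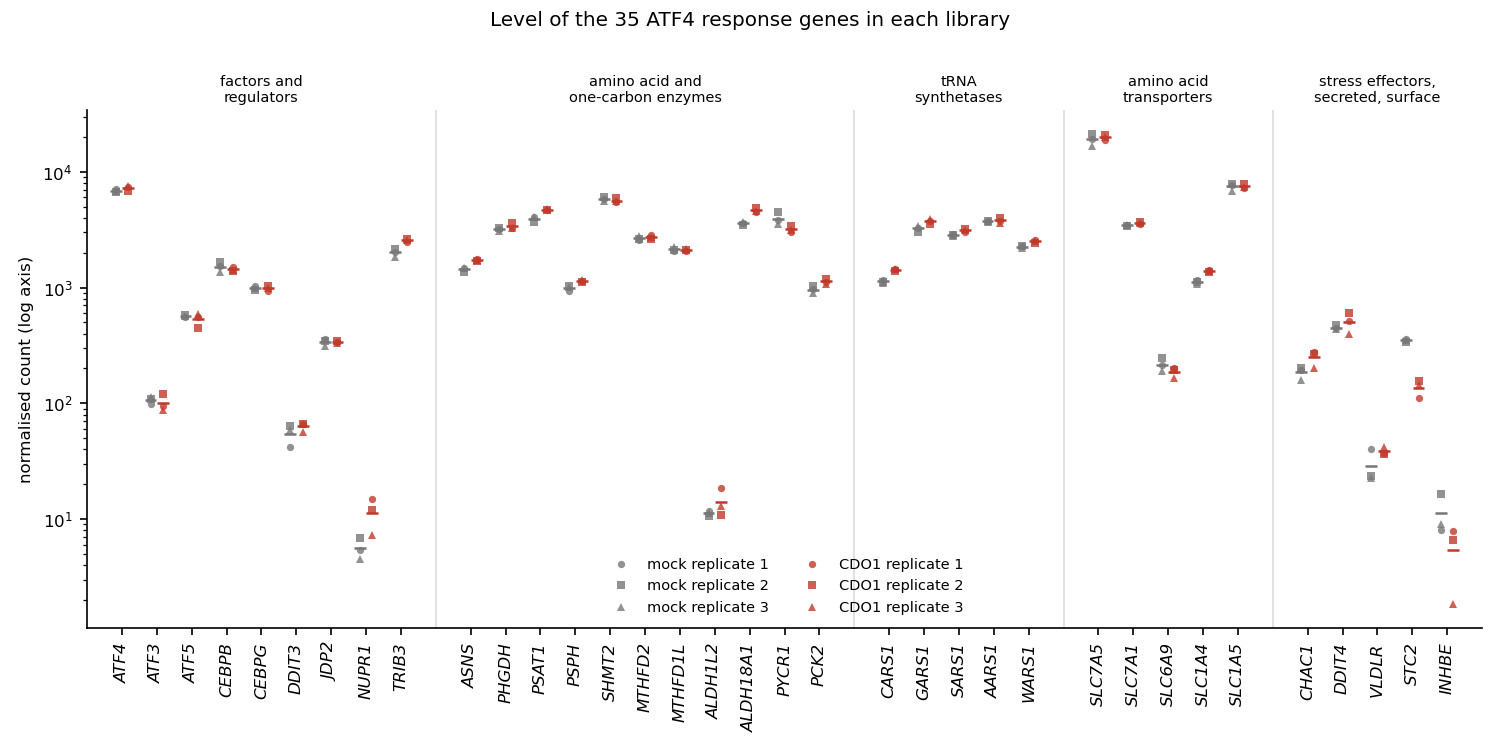
Normalised count of each of the 35 genes on a log axis, grouped by role, with 1 point per library (marker shape gives the replicate number) and a bar at the group mean, grey for mock and red for CDO1. STC2 shows the widest gap between the groups, and SLC7A5 is the gene with the highest counts in both.

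**Figure D2:**
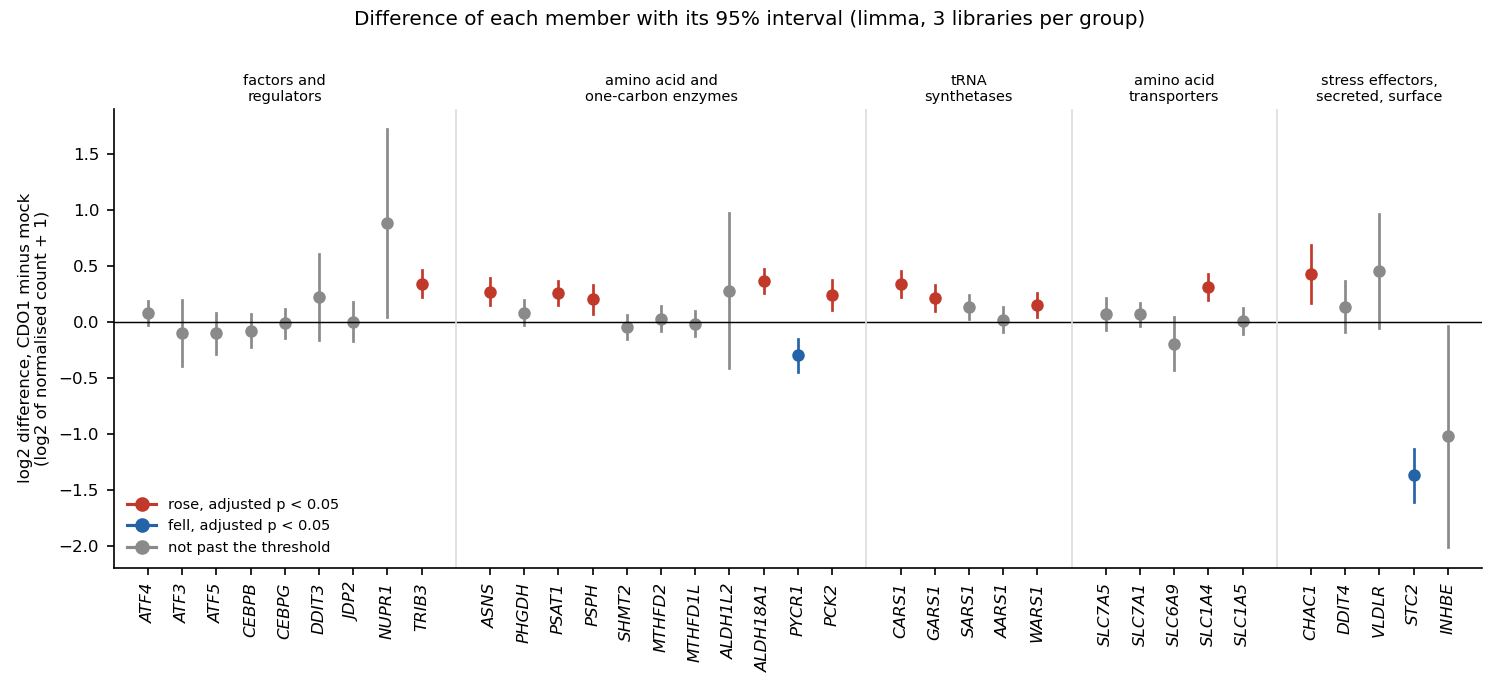
Log2 difference of each gene, CDO1 minus mock, with its 95% interval from limma (3 libraries per group), coloured by whether it rose, fell or did not pass the test. The 11 risers lie between 0.15 and 0.43, and STC2 lies at -1.37.

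Among the 9 transcription factors and regulators, 1 rose and none fell, with a median log2 difference of 0.00. The riser was TRIB3 (ENSG00000101255, chromosome 20, 362835 to 397559 on GRCh38), a pseudokinase that ATF4 induces and that binds ATF4 and AKT. TRIB3 had 2481, 2619 and 2571 normalised counts with CDO1 and 2043, 2166 and 1851 in mock. Its lowest CDO1 library lay above its highest mock library. The means were 2557 ± 69.9 and 2020.1 ± 159 (SD, n = 3 each), 1.27-fold higher with CDO1, with a log2 difference of 0.34 (SE 0.06, limma adjusted p = 0.000203).

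ATF4 (ENSG00000128272, chromosome 22, 39519695 to 39522685) had 7424, 6861 and 7495 normalised counts with CDO1 and 7055, 6752 and 6825 in mock. CDO1 replicate 2 lay within the mock range. The log2 difference was 0.08 with a 95% interval of -0.03 to 0.18 (limma adjusted p = 0.311). With each library's GC trend removed it was 0.13 and passed the test (limma adjusted p = 0.0310).

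DDIT3 encodes CHOP, the factor tied to cell death under prolonged stress. It was low, with 66.1, 66.8 and 56.9 normalised counts with CDO1 and 42.1, 63.4 and 58.8 in mock. The groups overlapped, and the log2 difference of 0.22 had a wide interval, from -0.16 to 0.61 (limma adjusted p = 0.441). The C/EBP partners on the list did not pass the test. CEBPB had a log2 difference of -0.08 (adjusted p = 0.472), and CEBPG, a common partner at amino acid genes, had -0.01 with an interval of -0.14 to 0.12 (adjusted p = 0.924). The sign of CEBPB turned when the GC trend was removed, to 0.12, and it then passed in the fit that also had the replicate number as a block (adjusted p = 0.0481). ATF3, a stress-induced repressor and activator, had 101.0 ± 16.3 normalised counts against 108 ± 7.52 (SD, n = 3 each), a log2 difference of -0.10 (adjusted p = 0.676). ATF5, another factor whose translation follows eIF2α, also stood at -0.10 (adjusted p = 0.461). JDP2, a repressor of AP-1 and ATF sites, had 339 in both groups, with SDs of 8.78 and 22.3. NUPR1, a small stress-induced chromatin protein, had only 8 to 15 reads per CDO1 library and 4 to 7 per mock library. Its groups did not overlap, but the log2 difference of 0.88 had an interval of 0.04 to 1.72 and did not pass (adjusted p = 0.125).

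Of the 11 amino acid and one-carbon enzymes, 5 rose and 1 fell, with a median log2 difference of 0.20. The riser with the smallest p was ALDH18A1 (ENSG00000059573, chromosome 10, 95605929 to 95656706), the synthase that takes glutamate to the precursor of proline and ornithine. Its normalised counts were 4504, 4851 and 4545 with CDO1 and 3639, 3482 and 3690.2 in mock. All CDO1 libraries lay above all mock libraries, with means of 4634 ± 189 and 3604 ± 109 (SD, n = 3 each), 1.29-fold higher. The log2 difference was 0.36 (SE 0.05, limma adjusted p = 1.96e-05).

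PYCR1, the mitochondrial reductase that makes proline in the last step, went the other way. It had 3012, 3415 and 3143 normalised counts with CDO1 and 3846, 4458 and 3506 in mock, with a gap between the highest CDO1 library and the lowest mock library. The means were 3190.0 ± 205 and 3936 ± 483 (SD, n = 3 each), 1.23-fold lower with CDO1, a log2 difference of -0.30 (SE 0.07, limma adjusted p = 0.00359). PYCR1 is GC-rich (61.8% over its longest transcript), and with the GC trend removed the difference was -0.18 (adjusted p = 0.00194). The 2 proline genes thus differed in direction, with 95% intervals of 0.26 to 0.47 for ALDH18A1 and -0.45 to -0.15 for PYCR1.

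The serine branch takes 3-phosphoglycerate to serine through PHGDH, PSAT1 and PSPH. PSAT1, the aminotransferase, had 4708, 4636 and 4764 normalised counts with CDO1 and 4036, 3704 and 4085 in mock. Its groups did not overlap, and it was 1.19-fold higher (log2 difference 0.26, SE 0.05, limma adjusted p = 0.000922). PSPH, the phosphatase of the last step, had 1147, 1119 and 1151 with CDO1 and 930.2, 1031 and 1014 in mock. It was 1.15-fold higher with no overlap (log2 difference 0.20, SE 0.06, limma adjusted p = 0.0198). PSPH did not pass without CDO1 replicate 1, CDO1 replicate 3 or mock replicate 1 (highest adjusted p = 0.159), and a related pseudogene, PSPHP1, could take or lend reads. PHGDH, the entry enzyme, was at 3374 ± 183 against 3183 ± 85.6 (SD, n = 3 each), a log2 difference of 0.08 with an interval of -0.03 to 0.20 (adjusted p = 0.2999).

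ASNS, asparagine synthetase, is the classical amino acid response gene and carries the element printed above. Its normalised counts were 1771, 1695 and 1726 with CDO1 and 1466, 1358 and 1488 in mock. The groups were apart, at means of 1730.5 ± 38.3 and 1437 ± 69.7 (SD, n = 3 each), 1.204-fold higher. The log2 difference was 0.27 (SE 0.06, limma adjusted p = 0.00134). PCK2, the mitochondrial phosphoenolpyruvate carboxykinase, had 1127, 1185 and 1083 with CDO1 and 963.4, 1023 and 892.6 in mock. It was 1.18-fold higher with no overlap (log2 difference 0.24, SE 0.07, limma adjusted p = 0.0100) and missed the threshold without CDO1 replicate 2 (adjusted p = 0.0542).

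The mitochondrial folate enzymes did not move beyond their spread. SHMT2, which splits serine into glycine and a one-carbon unit, had a log2 difference of -0.04 (adjusted p = 0.609). MTHFD2 and MTHFD1L, which carry that unit on to formate, had 0.03 (interval -0.08 to 0.14) and -0.02 (interval -0.13 to 0.10). ALDH1L2, the mitochondrial formyl-folate dehydrogenase, had 10 to 19 reads per library and a log2 difference of 0.28 with an interval of -0.41 to 0.97 (adjusted p = 0.609).

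Of the 5 cytosolic tRNA synthetases, which charge tRNAs with their amino acid, 3 rose and none fell, with a median log2 difference of 0.15 and positive values in all 5. CARS1 (ENSG00000110619, chromosome 11, 3000922 to 3057613) charges tRNA with cysteine, the substrate of CDO1. Its normalised counts were 1456, 1399 and 1438 with CDO1 and 1170.4, 1121 and 1102 in mock. The CDO1 libraries stood well clear of the mock libraries, at 1431 ± 29.3 against 1131 ± 35.4 (SD, n = 3 each), 1.27-fold higher. The log2 difference was 0.34 (SE 0.06, limma adjusted p = 0.000132), the highest of the 5.

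GARS1, for glycine, had 3788, 3542 and 3935 normalised counts with CDO1 and 3293, 3047 and 3393 in mock, 1.16-fold higher with no overlap (log2 difference 0.21, SE 0.06, limma adjusted p = 0.00878). It missed the threshold without CDO1 replicate 3 (adjusted p = 0.0766). WARS1, for tryptophan, is also induced by interferon. It had 2559, 2417 and 2535 with CDO1 and 2297, 2266 and 2200.3 in mock, 1.11-fold higher. Its groups did not overlap, but the log2 difference of 0.15 (SE 0.05) passed only narrowly (limma adjusted p = 0.0401) and was lost with equal library totals and without CDO1 replicate 1, CDO1 replicate 3, mock replicate 1 or mock replicate 3 (highest adjusted p = 0.158). SARS1, for serine, had all CDO1 libraries (3001 to 3191) above all mock libraries (2796 to 2914) and a log2 difference of 0.13 that missed the threshold (adjusted p = 0.0717). It passed with the GC trend removed (adjusted p = 0.0152) and with the replicate number as a block. AARS1, for alanine, had 0.02 with an interval of -0.09 to 0.13, although its promoter holds the same letters as that of CARS1.

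Of the 5 amino acid transporters 1 rose and none fell, with a median log2 difference of 0.07. SLC1A4 (ENSG00000115902, chromosome 2, 64988477 to 65023865) exchanges alanine, serine, cysteine and threonine. It had 1406, 1374 and 1390.5 normalised counts with CDO1 and 1163, 1118 and 1080.4 in mock. The groups were far apart for their spread, at 1390.2 ± 16.1 and 1120.4 ± 41.5 (SD, n = 3 each), 1.24-fold higher. The log2 difference was 0.31 (SE 0.06, limma adjusted p = 0.000346). Its close relative SLC1A5, the glutamine exchanger, had 7511 ± 340 against 7463 ± 512 (SD, n = 3 each) and a log2 difference of 0.01 with an interval of -0.11 to 0.13. The intervals of these relatives did not overlap in the reported fit. With the GC trend removed the values were 0.28 for SLC1A4 and 0.12 for SLC1A5, and both genes passed the test.

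SLC7A5 (LAT1), the large neutral amino acid exchanger, had 18794 to 20827 normalised counts with CDO1 and 16699 to 21317 in mock. Mock replicates 2 and 3 were its highest and lowest libraries, and its log2 difference was 0.07 (adjusted p = 0.521). With the GC trend removed it was 0.18 (adjusted p = 0.000785), and it also passed without mock replicate 2. SLC1A5, as GC-rich as SLC7A5, likewise passed once the trend was removed, at 0.12 (adjusted p = 0.0112). SLC7A1, the cationic amino acid transporter, had no overlap (3522 to 3689 against 3431 to 3464) with a log2 difference of only 0.07 (adjusted p = 0.365). SLC6A9, a glycine transporter, was at 188 ± 19.4 against 216 ± 28.0 (SD, n = 3 each), a log2 difference of -0.20 (adjusted p = 0.244).

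Among the 5 stress effectors and secreted or surface proteins, CHAC1 rose and STC2 fell. CHAC1 (ENSG00000128965, chromosome 15, 40952962 to 40956519) degrades glutathione and releases its cysteinylglycine, and is among the most used readouts of ATF4. Its normalised counts were 279, 267 and 203 with CDO1 and 194, 202 and 158 in mock. CDO1 replicate 3 barely cleared mock replicate 2, at 203.0 against 201.9. The means were 250 ± 40.9 and 185 ± 23.1 (SD, n = 3 each), 1.35-fold higher, with a log2 difference of 0.43 (SE 0.12, limma adjusted p = 0.0146). It missed the threshold without CDO1 replicate 1, CDO1 replicate 2 or mock replicate 3 (highest adjusted p = 0.103).

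STC2 (ENSG00000113739, chromosome 5, 173314713 to 173329503) encodes stanniocalcin 2, a secreted glycoprotein that inhibits the protease PAPP-A. It had 110, 154 and 144 normalised counts with CDO1 and 360, 339 and 353 in mock. Every CDO1 library lay far below every mock library. The means were 136 ± 23.0 and 351 ± 10.6 (SD, n = 3 each), 2.57-fold lower with CDO1, with a log2 difference of -1.37 (SE 0.11, limma adjusted p = 1.60e-08). With the GC trend removed the value was the same to 2 decimals. Its size was larger than that of any member that rose.

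DDIT4, an inhibitor of the growth kinase complex mTORC1, varied within the CDO1 group (514, 601 and 395 normalised counts) more than in mock (444, 471 and 439), with a log2 difference of 0.14 (adjusted p = 0.410). Without CDO1 replicate 3 it was 0.30 and passed (adjusted p = 0.0279). VLDLR, a lipoprotein receptor, had 36.1 to 42.2 with CDO1 and 22.6 to 40.3 in mock, and its log2 difference of 0.46 had an interval of -0.05 to 0.97 (adjusted p = 0.197). INHBE, the subunit of the secreted hormone activin E, had 2 to 8 reads per CDO1 library and 8 to 17 per mock library. Its log2 difference of -1.02 had an interval of -2.01 to -0.04 and did not pass (adjusted p = 0.130).

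**Figure D3:**
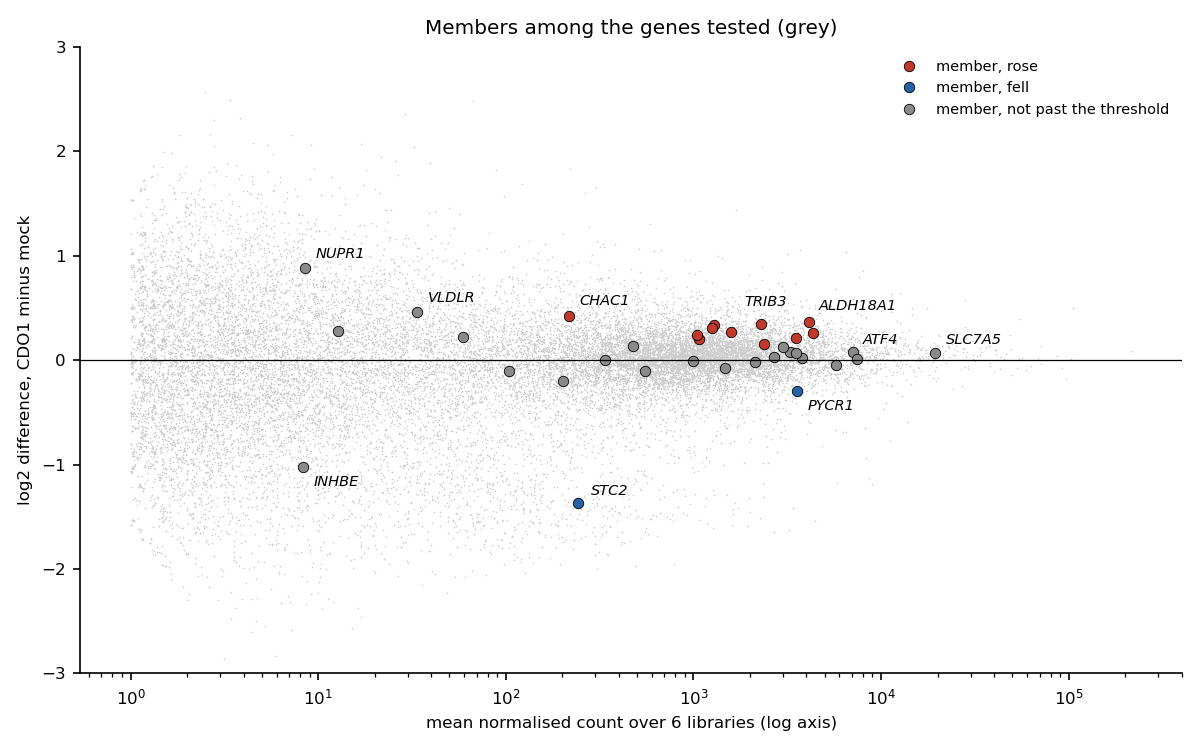
Log2 difference, CDO1 minus mock, against the mean normalised count over 6 libraries (log axis), with members coloured by call over 21406 of the genes tested in grey (1 of them beyond the plotted range). Of the 11 members that rose, 10 have means above 1000, and STC2 and CHAC1 are the 2 called members below that level.

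Levels were set on a common scale of normalised counts per kilobase of the principal transcript in the annotation, the longest where several tied. Mock levels of the members were highest in SLC7A5 (4191 ± 509, SD, n = 3) and ATF4 (3406 ± 78.3), then SLC1A5 (2590 ± 178) and SHMT2 (2292 ± 95.1). They were lowest in VLDLR (3.14 ± 1.09), ALDH1L2 (1.49 ± 0.0618) and NUPR1 (1.02 ± 0.212). The length used for NUPR1 was 5491 bases, and other lengths were not tried. PYCR1, at 2067 ± 253, did not stand apart from SHMT2. GARS1 (1232 ± 67.6) and PHGDH (1231 ± 33.1) did not differ beyond their spread, nor did AARS1 (1076 ± 17.7) and ALDH18A1 (1073 ± 32.4). On this scale CHAC1 (118 ± 14.8), STC2 (65.5 ± 1.98) and the factors DDIT3 (58.3 ± 11.9) and ATF3 (53.0 ± 3.70) were low in mock.

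The calls were recomputed under 17 alternatives that set no minimum size of the difference. Of the 13 members called, 8 passed in each of these (TRIB3, ASNS, PSAT1, ALDH18A1, PYCR1, CARS1, SLC1A4 and STC2), and all 13 kept their direction. Of the 22 not past the threshold, 16 passed in none. The number that rose was 8 without CDO1 replicate 1, 12 without mock replicate 2 and 15 with each library's GC trend removed, when ATF4, SARS1, SLC7A5 and SLC1A5 were added. It was 6 (TRIB3, ASNS, ALDH18A1, CARS1, SLC1A4 and CHAC1) when a log2 difference of at least 0.26 was also asked for. The 2 falls, of PYCR1 and STC2, held in each of these. The shares of all genes given above are those of the reported fit, and counts under the alternatives were not set beside shares of their own. Among members that did not pass with or without the GC trend, removing it took ATF5 to -0.0063, CEBPG to -0.045, SLC6A9 to -0.11, AARS1 to 0.037 and DDIT4 to 0.21. JDP2, SHMT2 and MTHFD2 then stood at 0.0018, 0.013 and -0.0045. The risers also shifted, up most in TRIB3 (0.45), PCK2 (0.36) and CHAC1 (0.56). CARS1 and WARS1 stood at 0.34 and 0.15. Values were lower in ASNS (0.24), PSAT1 (0.22), PSPH (0.19), ALDH18A1 (0.35), GARS1 (0.19) and SLC1A4 (0.28).

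**Figure D4:**
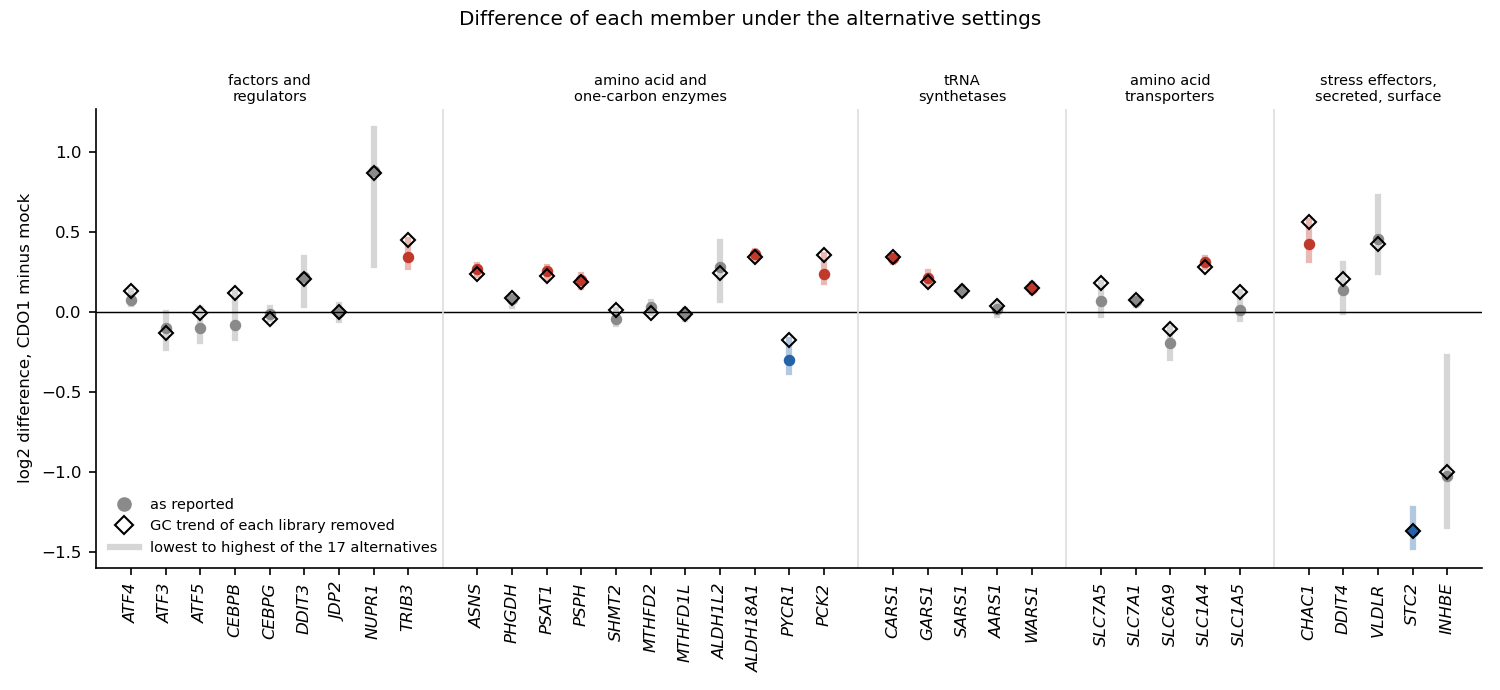
Log2 difference of each member, CDO1 minus mock, as reported (filled circle, coloured red for rose, blue for fell and grey for not past the threshold), with each library's GC trend removed (open diamond), and the span from lowest to highest over the alternatives (band, 17 alternatives, or 15 for NUPR1 and INHBE). The bands of the 13 called members do not cross 0, and the diamonds of GC-rich members such as TRIB3, PCK2, CHAC1, SLC7A5 and PYCR1 lie above the circles.

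The wider pathway was read from 9 lists with 179 measured genes, some in more than 1 list. Over all genes tested 11.3% rose and 12.7% fell, and over genes with a mean of at least 1000, 23.6% and 12.7%. In the order below, the lists had 12.5%, 30.8%, 33.3%, 17.6%, 38.1%, 25.0%, 32.4%, 21.6% and 23.8% of their tested genes risen. The shares that fell were 0%, 0%, 6.67%, 11.8%, 23.8%, 8.33%, 14.7%, 18.9% and 4.76%. In the same order, 5, 11, 15, 6, 6, 12, 20, 14 and 17 of their tested genes had a mean of at least 1000. No share of all genes matched to the abundance of each list was computed. Upstream of ATF4, 1 of 8 eIF2α kinases and their sensors rose and none fell. EIF2AK4 (GCN2), the kinase that senses uncharged tRNA, had 2149 ± 88.7 normalised counts against 2096 ± 98.05 (SD, n = 3 each), a log2 difference of 0.04 (interval -0.08 to 0.15, adjusted p = 0.711). EIF2AK3 (PERK), the endoplasmic reticulum kinase, had 0.15 (interval -0.06 to 0.37, adjusted p = 0.326). The riser was EIF2AK2 (PKR), 1.16-fold higher (limma adjusted p = 0.00475), and 2 rose with the GC trend removed. Of 13 genes of eIF2, its exchange factor eIF2B and the eIF2α phosphatase, 4 rose and none fell, and 7 rose with the GC trend removed and the replicate block. EIF2B3 and EIF2B2 were 1.32-fold and 1.28-fold higher, EIF2B1 1.15-fold and EIF2S2 1.14-fold, EIF2B1 missing the threshold without CDO1 replicate 1 or mock replicate 1 (adjusted p = 0.0966 and 0.0692). PPP1R15A (GADD34), the phosphatase subunit that ATF4 induces, had a log2 difference of 0.10 (adjusted p = 0.225) and passed with the GC trend removed, at 0.18 (adjusted p = 0.00456).

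Of 15 other cytosolic synthetases, 5 rose and 1 fell, with a median log2 difference of 0.08. YARS1 (1.25-fold), TARS1 (1.22-fold), EPRS1 (1.16-fold) and NARS1 (1.16-fold) led the risers. Without CDO1 replicate 3, 3 rose and none fell, NARS1 being among those lost (adjusted p = 0.0583). None fell without CDO1 replicate 2 or mock replicate 3 either, and 2 fell without mock replicate 2 or with the GC trend removed. Of 17 mitochondrial synthetases, 3 rose and 2 fell: TARS2 was 1.34-fold and NARS2 1.19-fold higher, and HARS2 was 1.49-fold and VARS2 1.15-fold lower. The count of rises was 1 without mock replicate 1 and 5 with the GC trend removed (6 with the block added), when VARS2 no longer passed (adjusted p = 0.0945). VARS2 was also lost without CDO1 replicate 3, mock replicate 1 or mock replicate 2 (highest adjusted p = 0.142), and NARS2 without mock replicate 1 (adjusted p = 0.0920).

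Transporters outside the member list moved in both directions. Of 21 tested, 8 rose and 5 fell, with a median log2 difference of 0.18. SLC38A5 and SLC38A2, which take up glutamine and other neutral amino acids with sodium, were 3.58-fold and 1.502-fold lower. SLC38A2, itself an amino acid response gene, had 3262 ± 195 normalised counts with CDO1 and 4901 ± 343 in mock (SD, n = 3 each, limma adjusted p = 2.51e-07). SLC7A7, a light chain that exports cationic amino acids, was 2.30-fold higher, and SLC1A1, a glutamate and cysteine carrier, 1.34-fold higher. The number of rising transporters was 4 without mock replicate 1, 5 without CDO1 replicate 1 or CDO1 replicate 3, and 5 with equal library totals.

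Of 24 other enzymes of one-carbon, serine, glycine and proline metabolism tested, 6 rose and 2 fell. SHMT1, the cytosolic counterpart of SHMT2, was 1.199-fold higher and GOT2, the mitochondrial aspartate aminotransferase, 1.21-fold higher. GLDC, the glycine decarboxylase, was 2.36-fold lower from low counts (32.5 ± 11.7 against 76.7 ± 8.89, SD, n = 3 each), and GLUL, glutamine synthetase, 1.18-fold lower. The fell count was 4 with a mean of at least 10, in edgeR, with equal library totals, with the replicate block and without mock replicate 2.

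Among 34 other reported targets of ATF4, 11 rose and 5 fell, with a median log2 difference of 0.05. TRIB1, a relative of TRIB3, was 2.48-fold lower, at 1344 ± 29.5 normalised counts against 3335 ± 209 (SD, n = 3 each, limma adjusted p = 2.03e-12). TRIB3 and TRIB1 thus differed in direction, with intervals of 0.22 to 0.47 and -1.43 to -1.19. TXNIP, which binds thioredoxin, was 1.97-fold higher and GABARAPL1, an autophagosome protein, higher by a log2 difference of 0.58. SESN2, a leucine sensor, had a log2 difference of -0.17 (adjusted p = 0.156), which passed without mock replicate 3, at -0.23 (adjusted p = 0.0418). Without CDO1 replicate 3, 7 of this list rose.

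Of 37 genes tested on a list of possible partners or competitors of ATF4, 8 rose and 7 fell, with a median log2 difference of -0.0022. TEF and DBP, related factors of the clock output, were 1.48-fold and 1.39-fold lower. BATF was 1.56-fold and CEBPZ 1.36-fold higher. CEBPZ was listed for its C/EBP symbol and is counted among the rises, but it is not a leucine zipper factor. Rises numbered 4 without CDO1 replicate 1 or CDO1 replicate 3 and 5 without mock replicate 1 or with equal library totals, and falls numbered 4 without CDO1 replicate 1. Of 21 genes of the ATF6 and XBP1 arms of the endoplasmic reticulum stress response, 5 rose and 1 fell, with a median log2 difference of -0.05. Of these 21, 17 had a mean of at least 1000 normalised counts, and the share that rose was near the 23.6% of all genes at that level. HSPA5 (BiP), the main chaperone of the compartment, was 1.13-fold lower, at 17700 ± 406 normalised counts against 19950 ± 518 (SD, n = 3 each, limma adjusted p = 0.0132). HERPUD1 was 1.16-fold, SEC61B 1.15-fold and PDIA6 1.12-fold higher. The rises were 1 without CDO1 replicate 1 or mock replicate 1, 2 without CDO1 replicate 3, and 3 without CDO1 replicate 2, without mock replicate 2 or with equal library totals, and the fall of HSPA5 was lost without mock replicate 1 (adjusted p = 0.106). Falls numbered 2 with the GC trend removed and 3 with the block added. SEC61B missed the threshold without CDO1 replicate 1, CDO1 replicate 2 or mock replicate 1, and PDIA6 without CDO1 replicate 1, CDO1 replicate 3 or mock replicate 1.

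**Figure D5:**
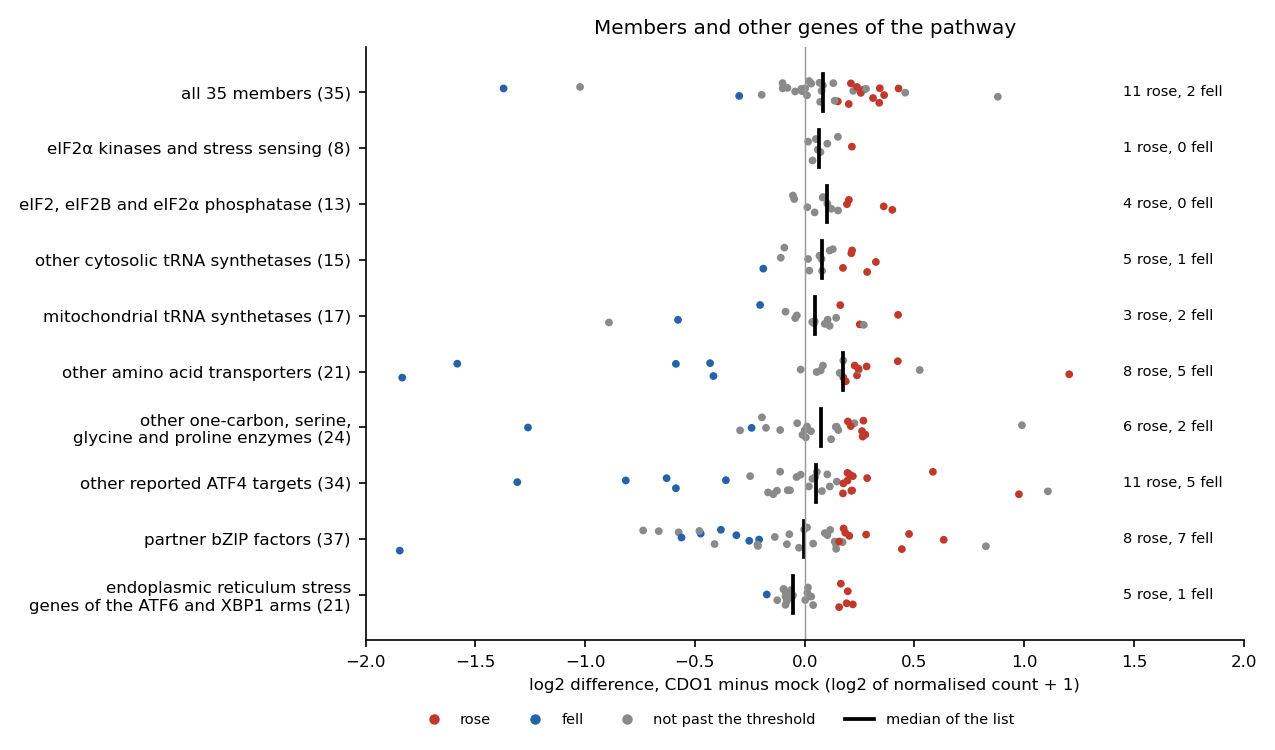
Log2 difference, CDO1 minus mock, of the 35 members and of 9 lists of pathway genes (number tested in brackets), 1 point per gene, coloured by call and spread vertically only for legibility, with a black bar at the list's median. The medians lie between -0.05 and 0.18, while single genes such as SLC38A5, TRIB1 and SLC7A7 lie beyond 1 in either direction.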

How the data were processed

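RNA-seq of 6 KM12 libraries was analysed, 3 overexpressing CDO1 and 3 mock. Per the labels' protocols, total RNA went into an Illumina library kit. Strandedness, read counter and annotation release: not given in the sources used here. STAR 2.5.1b, DESeq2 1.10.1 and the build GRCh38 are named in the submitters' processing notes. The signal columns deposited by the authors are read counts divided by a size factor (0.884 to 1.12), and undoing that division returned whole reads (tolerance 0.001) for 100% of the entries. The log2 fold change, p-value and adjusted p-value of each gene are also the authors', per the file headers, and served only as an alternative.

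Differences came from limma 3.58.1 (trend) in R 4.3.3 on log2 of the normalised count plus 1, with group as the term, for the 21775 genes whose mean reached 1, and adjusted p-values are Benjamini-Hochberg over all of them at 0.05. For low genes this log2 scale can give a smaller or a larger change than a count model. NUPR1 was at 0.88 here and 1.02 in DESeq2, and VLDLR at 0.46 and 0.41. Fold values are ratios of group means. With 3 against 3, an exact permutation test of a single gene cannot go below 0.1 and was not used. The fits were tested on simulated data.

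Members and lists were chosen with earlier results of these data known. The naming rule was: every member is accounted for, with per-library values for those past the threshold and for ATF4, DDIT3, TRIB3, CHAC1 and ASNS; of each pathway list up to 4 genes of smallest p past the threshold, and always EIF2AK4, EIF2AK3, PPP1R15A, SESN2 and HSPA5. Of 199 list entries, 192 matched a row.

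Alternatives were a mean of at least 10 or no filter, pseudocounts of 0.5 and 5, a minimum log2 difference of 0.26, the replicate number as a block, equal library totals, subtraction of a lowess curve on GC content per library (span 0.3) with and without the block, the authors' adjusted p, edgeR 4.0.16 and DESeq2 1.42.0 on recovered reads, and each library left out. GC content, lengths and coordinates came from GENCODE release 29, promoters from RefSeq.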

Additional observations from a re-analysis of the deposited data

How the results depend on the processing

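The number of members that rose was 11 with a mean of at least 10, with no filter, with either other pseudocount, by the authors' deposited adjusted p, in edgeR and in DESeq2, 10 with equal library totals, 8 to 12 with 1 library left out, 15 with the GC trend removed and 16 when the replicate block was added to it. With a minimum log2 difference of 0.26 it was 6. The number that fell was 2 in each of these. The replicate number as a block gave 12 rises, SARS1 being added. None of these counts was set beside the share of all genes called under the same alternative. Replicate numbers were not taken to pair the libraries. Over 10941 genes, deviations of same-numbered libraries correlated at 0.0777, 0.299 and 0.0862 for numbers 1, 2 and 3. CDO1 replicates 2 and 3 correlated best with the mock library of their own number, and CDO1 replicate 1 with mock replicate 3 (0.189). Signs turned only among members not past the threshold, and the cause was not tested. CEBPB was 0.12 and SHMT2 0.013 with the GC trend removed, with or without the block, where MTHFD2 was -0.0045. With equal library totals JDP2 was -0.0236, AARS1 -0.00620 and SLC1A5 -0.016. JDP2 was -0.0019 in the authors' deposited table, -0.0042 in edgeR and -0.0020 in DESeq2. With 1 library left out, log2 differences ran from -0.18 to 0.018 for ATF5, -0.043 to 0.025 for CEBPG, -0.050 to 0.045 for JDP2, -0.035 to 0.013 for MTHFD1L, -0.017 to 0.053 for AARS1, -0.019 to 0.16 for SLC7A5, -0.046 to 0.049 for SLC1A5 and -0.0017 to 0.30 for DDIT4. NUPR1, INHBE and ALDH1L2 rest on 2 to 19 reads per library. Intervals cover the spread between libraries, and without molecular identifiers reads cannot be taken as separate molecules.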
